A study of Mus musculus with 21 samples.

Results

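Estrogen receptor alpha (ERα) binding after estradiol was compared between subcutaneous white fat, labelled scWAT, and Liver, as recorded in the authors' peak lists from chromatin immunoprecipitation and sequencing (ChIP-seq). The scWAT list comes from 3 libraries and the Liver list from 2 libraries of CD-1 mice, an outbred stock, aged 10 weeks and given estradiol before sacrifice. No allele, transgene or other agent is named in the labels of these groups, and the sources used here do not give the sex of the mice or the dose, route and time of the hormone. Peaks on chromosomes 1 to 19 and X were ranked by the authors' −log10 p-value, and the 5000 strongest of each list were taken, which gave 10000 peaks of the 72690 in the 5 ERα lists of the series. A peak was called shared when it overlapped any peak of the other tissue's full list by at least 1 bp, and otherwise scWAT-only or Liver-only. Each class was split by whether the summit was at most 1 kb from a start or end of a protein-coding gene (gene-end peaks) or farther away (distal peaks). The series of 21 samples also holds ERα lists of visceral fat (vWAT) with estradiol (4 libraries) and with vehicle (2), and of brown fat (BAT) with estradiol (1), which were used here only to look up the peaks of scWAT and Liver.

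ERα is a nuclear receptor that binds estradiol and regulates genes either by contacting DNA directly or by joining complexes of other DNA-bound factors. Its direct binding site, the estrogen response element, is a palindrome of a pair of GGTCA arms. In many tissues most ERα sites lie in enhancers away from promoters, and which enhancers are occupied depends on the cell type. In white fat the receptor is known for restraining fat mass and shaping its distribution, and in liver for its effects on lipoprotein and lipid metabolism and on hepatic secreted proteins.

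The bases before 8 gene starts with a peak summit nearby are shown first, since the content of such windows differed between the classes as described below. Each is the 250 bases before the start site on the strand of the gene, from RefSeq on GRCm38.p6, the assembly behind mm10. Capitals mark an arm, GGTCA or its reverse complement TGACC, and where the full element is present (GGTCA followed after any 3 bases by TGACC) they run through it. Micos10 is the scWAT-only gene-end peak, of those named by rank, whose summit lay in a window around a gene start. Its window is among the 11 of 57 scWAT-only windows with the element at most 1 base off, so it is not typical of the class. Gm31295 and Tex45 are the windows with a scWAT-only summit, whether gene-end or distal, that hold the full element exactly. Gm34323 is the window of the shared class that does so, Ddx17 and Hnrnpa2b1 lie among the strongest shared gene-end pairs, and Nup205 and Smtn among the strongest Liver-only gene-end peaks. Gm31295, Tex45 and Gm34323 were chosen after their sequences were seen.
Micos10 (scWAT-only, minus strand, chr4:139131114-139131363): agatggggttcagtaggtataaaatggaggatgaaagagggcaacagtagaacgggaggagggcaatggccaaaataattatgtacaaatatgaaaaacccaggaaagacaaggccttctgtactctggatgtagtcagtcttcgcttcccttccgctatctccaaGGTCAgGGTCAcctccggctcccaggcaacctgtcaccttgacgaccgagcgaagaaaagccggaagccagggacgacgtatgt
Gm31295 (scWAT-only, plus strand, chr4:136387240-136387489): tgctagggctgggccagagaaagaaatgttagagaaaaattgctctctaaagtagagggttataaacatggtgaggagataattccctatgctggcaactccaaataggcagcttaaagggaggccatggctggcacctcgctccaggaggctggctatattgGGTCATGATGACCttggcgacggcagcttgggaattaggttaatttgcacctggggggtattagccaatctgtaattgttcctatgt
Tex45 (scWAT-only, plus strand, chr8:3470612-3470861): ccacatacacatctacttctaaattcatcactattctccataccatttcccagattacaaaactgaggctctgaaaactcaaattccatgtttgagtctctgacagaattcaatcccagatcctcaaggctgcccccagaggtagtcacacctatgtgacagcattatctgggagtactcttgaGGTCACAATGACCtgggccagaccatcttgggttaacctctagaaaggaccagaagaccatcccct
Gm34323 (shared, plus strand, chr9:120601620-120601869): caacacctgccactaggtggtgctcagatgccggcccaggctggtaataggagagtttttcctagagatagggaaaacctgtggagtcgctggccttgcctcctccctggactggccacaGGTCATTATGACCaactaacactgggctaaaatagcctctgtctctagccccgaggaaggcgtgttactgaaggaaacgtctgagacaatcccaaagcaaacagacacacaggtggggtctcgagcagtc
Ddx17 (shared, minus strand, chr15:79546742-79546991): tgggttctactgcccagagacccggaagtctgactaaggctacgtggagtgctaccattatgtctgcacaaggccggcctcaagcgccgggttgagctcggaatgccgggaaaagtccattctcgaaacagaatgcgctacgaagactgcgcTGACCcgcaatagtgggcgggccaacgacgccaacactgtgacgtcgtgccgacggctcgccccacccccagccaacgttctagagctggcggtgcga
Hnrnpa2b1 (shared, minus strand, chr6:51469895-51470144): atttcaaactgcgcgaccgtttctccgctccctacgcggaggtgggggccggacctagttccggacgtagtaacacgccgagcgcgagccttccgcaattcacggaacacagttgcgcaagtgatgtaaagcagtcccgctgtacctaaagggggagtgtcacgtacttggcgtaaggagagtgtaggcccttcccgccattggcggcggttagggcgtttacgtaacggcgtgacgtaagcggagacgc
Nup205 (Liver-only, plus strand, chr6:35177366-35177615): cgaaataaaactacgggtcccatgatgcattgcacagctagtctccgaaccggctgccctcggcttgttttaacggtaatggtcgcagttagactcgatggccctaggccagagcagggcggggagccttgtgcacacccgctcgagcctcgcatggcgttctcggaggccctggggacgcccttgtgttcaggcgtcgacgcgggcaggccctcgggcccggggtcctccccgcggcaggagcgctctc
Smtn (Liver-only, minus strand, chr11:3539293-3539542): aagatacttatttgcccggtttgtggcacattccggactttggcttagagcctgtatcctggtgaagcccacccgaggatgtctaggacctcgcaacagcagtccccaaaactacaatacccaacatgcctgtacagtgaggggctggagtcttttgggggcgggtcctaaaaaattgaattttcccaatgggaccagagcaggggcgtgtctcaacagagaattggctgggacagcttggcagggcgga
The full element begins 87 bases before the start site of Gm31295 and 66 bases before that of Tex45, and 130 bases before that of Gm34323. The Micos10 stretch holds a pair of arms in the same orientation, whereas no arm stands in the stretches of Hnrnpa2b1, Nup205 or Smtn.

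The lists differed in strength, and neither carries a spread between animals. Each group has 1 deposited list for all its libraries, so no test across replicates could be made, and whether the libraries came from separate animals is not given. The read depth is unknown here. The full lists held 17971 scWAT and 21411 Liver peaks. The 5000th peak had a −log10 p of 11.83 in scWAT and 6.682 in Liver, and the next peak had the same value in each list. The median over the 5000 was 22.40 and 8.915, and 88.00% of all scWAT peaks against 46.45% of all Liver peaks had a −log10 q of at least 2. Enrichment, the authors' fold over a background that is not stated, is therefore read only within a list. All intervals are 95% intervals and cover counting error over peaks.

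The strongest Liver peaks were nearly all present in subcutaneous fat, whereas most of the strongest fat peaks were absent from Liver. Of the 5000 Liver peaks 2758 were found in scWAT, 55.16% (Wilson interval 53.78 to 56.53), against a background of 21.6% over all Liver peaks. Of the 5000 scWAT peaks 1837 were found in Liver, 36.74% (35.41 to 38.09), against 25.8% over all scWAT peaks. Among the 500 strongest Liver peaks 99.60% were shared, and the share stood at 95.20% in the next 500, 47.40% at ranks 2001 to 2500 and 31.60% at ranks 4501 to 5000. In scWAT the share was 47.60% among the first 500 and 33.00% among the last 500. The 10 bins of scWAT thus stayed between 30.80% and 47.60%, while those of Liver reached down from nearly all to under the lowest scWAT bin. The difference between 36.74% and 55.16% holds for 5000 peaks looked up in the other's full list. Looked up in each other, 2 lists give nearly the same count from either side, 1505 and 1510 between the 5000 of each and 4645 and 4619 between the full lists, so those shares say nothing of an order.

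**Figure D1:**
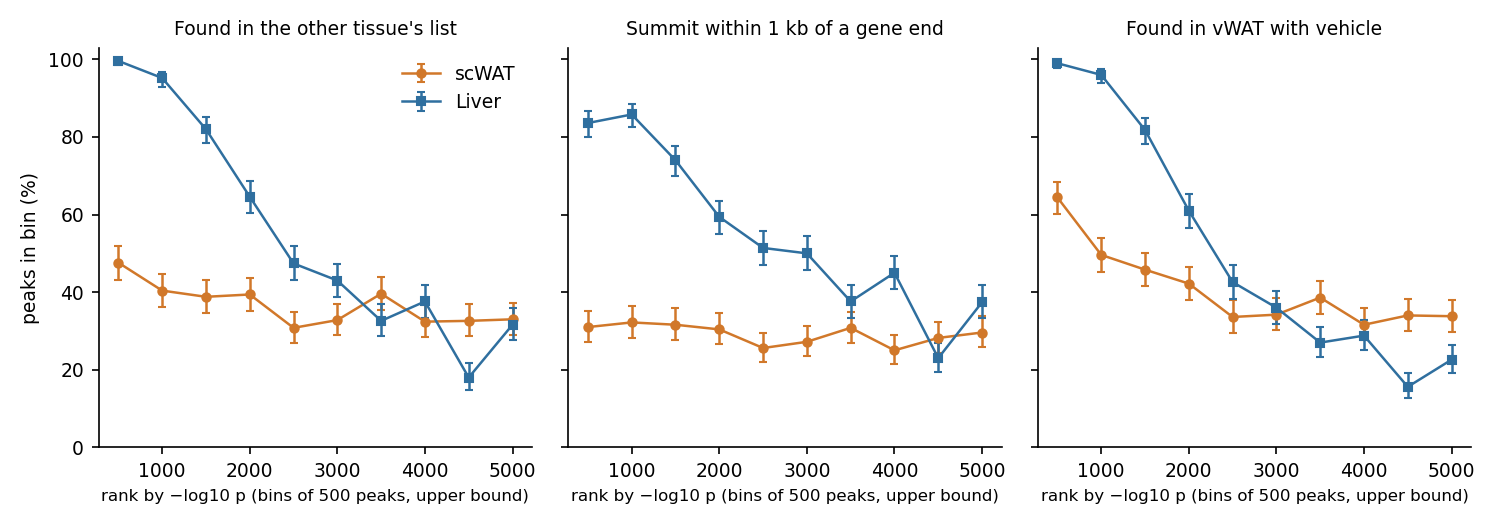
Share of peaks (%) in bins of 500 by rank in the scWAT (circles) and Liver (squares) lists that were found in the other tissue, that had a summit within 1 kb of a gene end, and that were found in vWAT with vehicle. Bars are 95% Wilson intervals over peaks. The Liver share found in scWAT runs from 99.60% in the first bin to 31.60% in the last, and the scWAT share found in Liver from 47.60% to 33.00%.

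Where peaks coincided, the summits lay close together and strength went together moderately. The 5000 of each list formed 1511 overlapping pairs with a median distance between summits of 47 bp, and 78.36% of pairs had summits within 100 bp. Across these pairs Spearman's rho between the enrichment in scWAT and in Liver was 0.51, with 0.57 over the 1172 gene-end pairs and 0.42 over the 339 distal pairs. These are descriptions across peaks, which share their libraries and are not replicates. The partner of a shared scWAT peak was usually a strong Liver peak, with 81.93% among the Liver 5000 and a median rank of 1091. The partner of a shared Liver peak was often weaker in fat, with 54.75% among the scWAT 5000 and a median rank of 4392.

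Shared binding lay at gene ends and fat-only binding did not. Among shared scWAT peaks 69.08% (66.93 to 71.15) had a summit within 1 kb of a gene end, against 5.975% (5.201 to 6.856) of scWAT-only peaks, a difference of 63.10 percentage points (Newcombe interval 60.78 to 65.32). In Liver the shares were 77.16% (75.55 to 78.69) of shared and 27.12% (25.32 to 29.00) of Liver-only peaks, 50.04 points apart (47.57 to 52.40). The background was 29.7% of all scWAT peaks and 25.2% of all Liver peaks. Of the scWAT-only peaks 44.58% lay inside genes away from their ends and 14.26% more than 100 kb away from all protein-coding genes, compared with 35.50% and 11.91% of Liver-only peaks. Among gene-end peaks with a start site in the promoter table, 84.82% of the shared scWAT, 86.67% of the shared Liver and 79.12% of the Liver-only peaks lay within 1 kb of a start site. For scWAT-only gene-end peaks it was 59.89% (52.64 to 66.74). Distal is defined by protein-coding genes only, and some distal peaks also lay within 1 kb of a start site of that table. It was 26.22% of the distal shared scWAT and 33.93% of the distal shared Liver peaks, against 3.339% of distal scWAT-only and 7.247% of distal Liver-only peaks.

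Liver-only peaks were at gene ends more often than scWAT-only peaks among the 5000, by 21.14 points (19.14 to 23.17), but this order turned over the full lists, where it was 13.57% of Liver-only and 16.49% of scWAT-only peaks. The gene-end share of shared scWAT peaks rested on peaks that were also listed in vWAT with vehicle. With those peaks left out it was 17.76%, and 4.848% for scWAT-only peaks, while in Liver the values were 57.86% for shared and 20.85% for Liver-only peaks. Without them 8.747% of scWAT peaks and 18.71% of Liver peaks were shared.

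**Figure D2:**
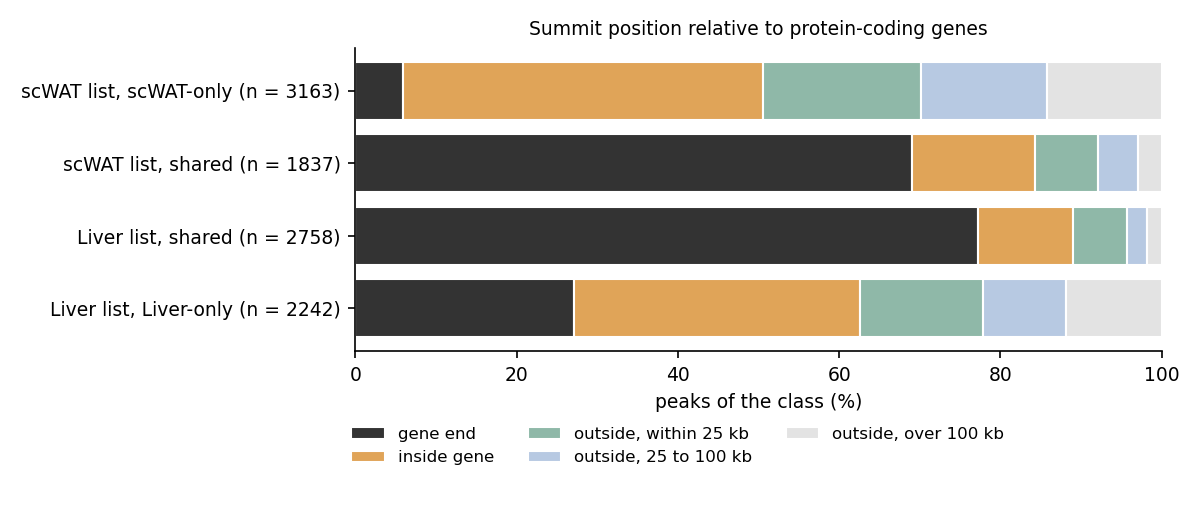
Position of the summit relative to protein-coding genes for the 4 classes, as stacked shares of each class (%), with the number of peaks beside each name. The dark segment, summits within 1 kb of a gene end, covers 5.975% of scWAT-only, 69.08% and 77.16% of the shared and 27.12% of Liver-only peaks.

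Fat-only sites recurred in the other white fat depot, though away from gene ends less often than shared ones. Few liver-only sites away from gene ends were found in the other lists. Of the 2974 distal scWAT-only peaks 78.18% (76.66 to 79.63) were found in vWAT with estradiol, and of the 1634 distal Liver-only peaks 7.711% (6.515 to 9.106), a difference of 70.47 points (68.40 to 72.34). The background was 56% of all scWAT peaks and 22.2% of all Liver peaks, and among distal peaks alone 52.46% and 10.21%, so the Liver-only value lay near that of all distal Liver peaks. In vWAT with vehicle 13.55% of the distal scWAT-only and 3.611% of the distal Liver-only peaks were found, against 24.7% and 17.2% of all peaks and 12.24% and 5.354% of all distal peaks of the lists. In BAT, where the list is short, it was 10.32% and 2.509%, against 12.3% and 8.78% of all peaks and 6.368% and 2.827% of all distal peaks. The full lists behind these backgrounds also hold weaker peaks than the classes do. Shared distal peaks of the scWAT list were found more often, 92.78% in vWAT with estradiol, 62.50% in vWAT with vehicle and 45.42% in BAT. For shared distal peaks of the Liver list it was 86.67%, 69.37% and 40.00%. Recurrence in vWAT is therefore not particular to the scWAT-only class. Of the 2483 scWAT-only peaks found in vWAT with estradiol, 2037 (82.04%) were absent from vWAT with vehicle. The same share over all scWAT peaks was not computed. Of all 17971 scWAT peaks 10065 were found in vWAT with estradiol and 4438 with vehicle. The vehicle list is also shorter, with 7400 peaks from 2 libraries against 20715 from 4 libraries with estradiol. Of the distal Liver-only peaks 89.60% (88.02 to 90.98) were in none of the 3 other lists, and of the distal scWAT-only peaks 21.22% (19.79 to 22.72). This share was not computed over all distal peaks. Of all distal Liver peaks only 10.21%, 5.354% and 2.827% were found in each of the 3 lists, so most distal peaks of the full Liver list were absent from each as well. The shared distal Liver peaks given above were found in each more often.

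At gene ends the classes were less far apart. In vWAT with estradiol 83.60% (77.66 to 88.20) of scWAT-only and 37.66% (33.90 to 41.58) of Liver-only gene-end peaks were found, 45.93 points apart (38.82 to 51.88), against 64.42% and 57.73% of all gene-end peaks of the lists. In vWAT with vehicle 30.69% of scWAT-only and 31.74% of Liver-only gene-end peaks were found, a difference of −1.056 points (−8.275 to 6.721), both below the 54.23% and 52.26% of all gene-end peaks. The shared gene-end peaks were the most widely held. Of those in the scWAT list 98.74% were found in vWAT with estradiol, 96.38% in vWAT with vehicle and 73.21% in BAT, and of those in the Liver list 90.65%, 87.55% and 54.14%. Of the 500 strongest Liver peaks 99.00% were found in vWAT with vehicle, and of the 500 strongest scWAT peaks 64.40%. Vehicle lists of scWAT and Liver were not used here, so which of their peaks depend on estradiol was not tested. Fewer cells of a type and less bound receptor per cell cannot be told apart in these bulk tissues.

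**Figure D3:**
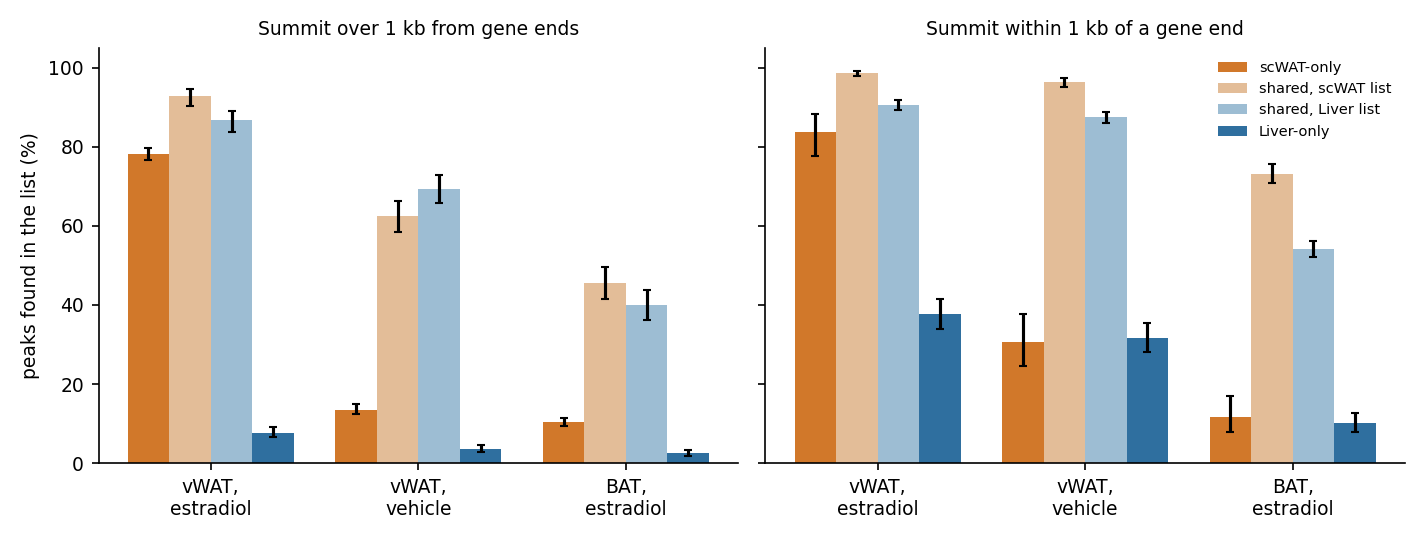
Share of peaks of each class (%) found in vWAT with estradiol, vWAT with vehicle and BAT with estradiol, for distal and for gene-end summits. Bars are 95% Wilson intervals over peaks. Distal scWAT-only peaks stand at 78.18% in vWAT with estradiol and distal Liver-only peaks at 7.711%.

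The DNA at gene starts differed between the classes, with response elements more frequent in the fat-only windows and an ETS motif more frequent in the shared ones. RefSeq windows from 250 bases before to 50 bases after a start site held the summit of 57 scWAT-only, 867 and 1481 shared (scWAT and Liver list) and 348 Liver-only peaks. The element, searched on both strands as GGTCA, any 3 bases and TGACC, stood with at most 1 base off in 11 of the 57 scWAT-only windows, 19.30% (11.13 to 31.34). It stood in 9 of the 867 (1.038%, 0.5471 to 1.961) and 7 of the 1481 shared windows (0.4727%, 0.2291 to 0.9724), and in 0 of the 348 Liver-only windows, an upper bound of 1.092%. Over all 32585 windows the share was 0.8838%. Exact elements were found in 2 scWAT-only, 1 shared scWAT and 0 of the Liver windows, and in 23 of all windows. A single arm, which lies inside the full element, was present in 70.18% (57.34 to 80.47) of scWAT-only windows, 36.45% and 37.61% of shared, 32.76% of Liver-only and 40.57% of all windows.

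The 11 scWAT-only windows with an element, all given here after their sequences were seen, belong to Micos10, Gm21123, Nlrp3, Idnk, 2810429I04Rik, Gm31295, Gm28722, Tex45, 1600020E01Rik, 1700019N19Rik and Gm35853. Micos10 encodes a subunit of the complex that shapes the inner mitochondrial membrane, and Nlrp3 the sensor of an inflammasome. Their peaks ranked from 429 (Micos10, enrichment 11.76) to 4703 (Gm35853, enrichment 4.721) in scWAT. The 9 shared windows included Mad2l1, a gene of the spindle checkpoint (scWAT rank 50), and Kif3b, a kinesin gene (scWAT rank 152).

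Motifs known from promoters of broadly expressed genes had their lowest shares among the 4 peak classes in the scWAT-only windows, where the intervals of 57 windows are wide and partly overlap those of the other classes. The ETS motif CCGGAAG was present in 17.54% (9.819 to 29.37) of scWAT-only, 32.53% (29.49 to 35.72) and 32.68% (30.34 to 35.11) of shared and 26.72% (22.35 to 31.61) of Liver-only windows, against 8.918% (8.614 to 9.233) of all windows, so each class lay above all windows. The GC box GGGCGG was present in 35.09% (24.00 to 48.06) of scWAT-only, 50.40% (47.08 to 53.72) and 57.60% of shared and 68.10% (63.03 to 72.78) of Liver-only windows, against 35.87% of all. For CCAAT the shares in the same order were 31.58% (21.00 to 44.48), 44.98%, 47.94% and 39.94%, against 37.57%. The C/EBP motif, TTGC and CAA with any 2 bases between, was rare, in 3.509% of scWAT-only (0.9676 to 11.92), 1.615% and 1.418% of shared and 0.8621% of Liver-only windows, against 2.093%. The median ratio of observed to expected CpG was 0.5250 in scWAT-only windows, 0.7963 and 0.8177 in shared, 0.8259 in Liver-only and 0.3861 in all windows. A match describes these letters and is not by itself a binding site. Base composition also differed, with a median GC of 54.67% in scWAT-only, 56.67% and 58.67% in shared, 64.00% in Liver-only and 53.00% in all windows. Its part in the GC box and ETS shares was not tested. The search took any peak with its summit in a window, whether gene-end or distal. Of the distal scWAT-only peaks 3.339% lay within 1 kb of a start site. Distal peaks outside the windows, where most scWAT-only sites lie, were not searched.

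**Figure D4:**
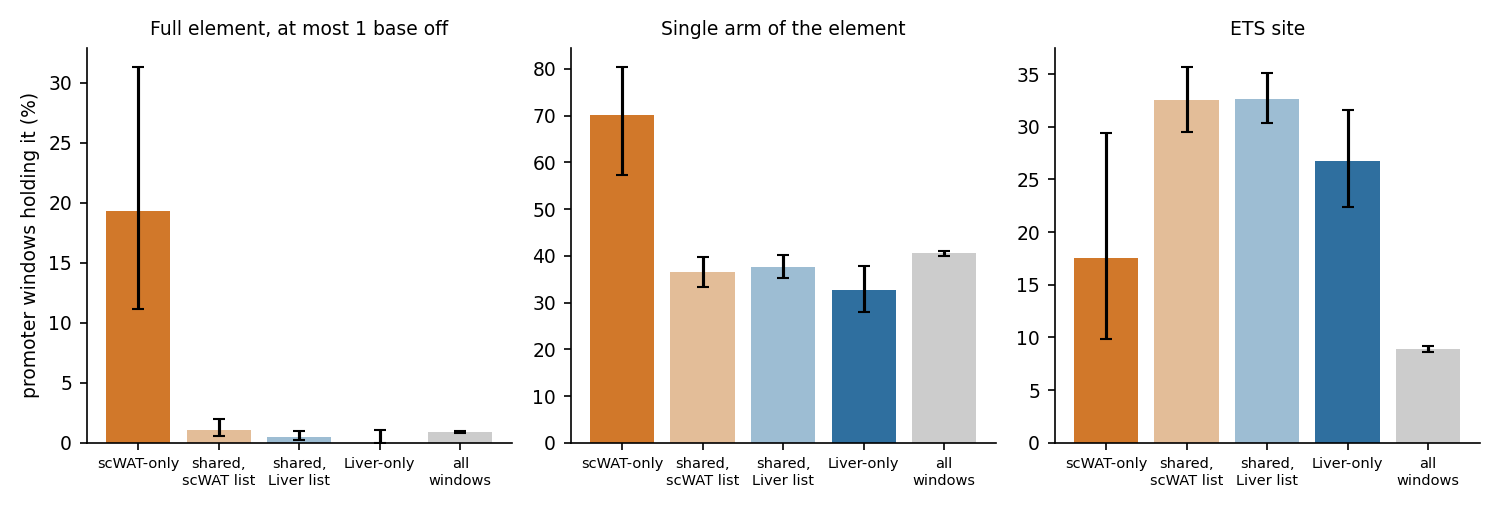
Share of promoter windows (%) that hold the full element with at most 1 base off, a GGTCA arm and the ETS motif, for windows with a summit of each class and for all 32585 windows. Bars are 95% Wilson intervals over windows. The full element stands in 19.30% of the 57 scWAT-only windows and in at most 1.038% of those of the other classes, and each panel has its own scale.

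The strongest peaks of each class illustrate these positions. The scWAT-only distal peak of Ptpn5, which encodes a tyrosine phosphatase, lay inside the gene at chr7:47108732-47109345, 24.98 kb from its nearer end, at rank 23 with a −log10 p of 247.4. It was found in vWAT with estradiol and in neither the vehicle nor the BAT list. Those inside Gm12248 (rank 13, enrichment 18.94) and 34.85 kb from Cradd, a caspase adaptor gene (rank 15, enrichment 15.79), were found in all 3 other lists. No protein-coding gene lay within 50 kb of the scWAT-only distal peaks at ranks 7 and 26. At gene ends the strongest scWAT-only peaks lay 240 bp from Mnt, a repressor of the Myc network (rank 189, −log10 p 118.5), 744 bp from Faim2, an inhibitor of Fas-induced death (rank 262, −log10 p 103.9), and 348 bp from Htra1, a secreted protease (rank 338, −log10 p 91.76). Those of Tmprss12 (rank 384, −log10 p 86.94) and Micos10 (rank 429) followed. Those of Faim2, Htra1 and Tmprss12 were found in vWAT with estradiol and not with vehicle, and those of Mnt and Micos10 with both.

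Liver-only peaks began lower in their list. The strongest distal one lay 16.11 kb from Gm6124 at rank 444, with an enrichment of 12.05 and a −log10 p of 27.85, and was in none of the other lists. The next lay inside Dnase2b, an acid DNase gene (rank 496, enrichment 10.89). A peak inside Tcf7l2, a transcription factor of Wnt signalling, at chr19:55804071-55804641 had rank 724 and an enrichment of 11.26, and was in none of the other lists either. The others lay 24.54 kb from Fscn1 (rank 690, enrichment 10.08) and inside Rasa3 (rank 862, enrichment 10.08), and both were found in vWAT with estradiol. The 5 strongest Liver-only gene-end peaks, at Morf4l1 (rank 573), Zfp420 (587), Nup205 (625), Atg2b (770) and Smtn (793), had enrichments of 10.97, 12.14, 11.99, 10.21 and 10.73. All 5 were found in vWAT with and without estradiol, so they were absent from scWAT and not from fat as a whole.

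The strongest shared gene-end pairs had similar positions in both tissues and were present in all 5 lists. At Ddx17, an RNA helicase gene, the scWAT peak had rank 4 (enrichment 18.50) and the Liver peak rank 3 (24.02), with summits 43 and 48 bp from the nearer gene end. At Hnrnpa2b1, which encodes an RNA-binding protein, the ranks were 3 and 8. The pair inside Gpr137, near the end of the neighbouring gene Bad, had ranks 1 and 7, that of Kmt5b, a histone methyltransferase gene, 6 and 12, and that of Fyco1, a gene of vesicle transport, 24 and 9. The strongest shared distal pair lay 29.41 kb from Rpusd4 by the scWAT summit (ranks 5 and 2), followed by one 61.12 kb from Axin2, beyond the 50 kb used for naming (12 and 6), one inside Chl1 (21 and 18) and one 25.01 kb from Col19a1 (45 and 5). Another, at chr2:98666173-98667376 in scWAT, had rank 58 with an enrichment of 4.794 and in Liver rank 1 with 8.633, with no protein-coding gene within 50 kb. Each of these distal pairs was also present in all 5 lists. Whether any of them is receptor binding or artefact was not tested, since repeats and regions of known artefact were not looked up here.

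Genes of the estrogen response carried fat-only peaks. A gene was counted for a class when a summit of that class lay inside its span or within 25 kb, and a shared peak is counted in each list, so a pair adds 2. Over the 21627 protein-coding genes 12.2% had a scWAT-only, 13.7% a Liver-only and 27.5% a shared peak. The median span was 34.13, 24.59 and 17.13 kb for the genes with each, against 17.33 kb over all genes, and long genes have more room for peaks. Of 18 estrogen response genes 9 had a scWAT-only, 3 a Liver-only and 7 a shared peak. Greb1, a classical estrogen target, had 4 scWAT-only peaks, with the strongest inside the gene at chr12:16790254-16790870 (rank 486, enrichment 12.11), and no Liver-only or shared one, although 3 weaker Liver peaks lay within reach. Pgr, the progesterone receptor gene, had 3 scWAT-only peaks (strongest rank 205, enrichment 10.35) and no peak of the full Liver list. Nrip1, a corepressor of nuclear receptors, had 2 (strongest rank 151, enrichment 11.59). Esr1, which encodes ERα, had 1 scWAT-only and 2 shared peaks, and Xbp1, a transcription factor of the secretory pathway, 1 and 2. A shared scWAT peak counted for Xbp1, at rank 38 (enrichment 16.43), lay 16.39 kb outside its span at the end of another gene. That peak was also found in vWAT with estradiol, in vWAT with vehicle and in BAT.

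Adipocyte and matrix genes had scWAT-only peaks more often than all genes, and adipogenic factors had Liver-only peaks more often as well. Of 20 stroma and matrix genes 9 had a scWAT-only, 2 a Liver-only and 0 a shared peak. They included the collagen genes Col4a1 (2 peaks, strongest rank 312, enrichment 10.40), Col5a1 (2 peaks, rank 1103, 8.892) and Col6a3 (1 peak, rank 778, 10.95), and Cd34, a marker of progenitor and vascular cells (rank 525, 10.89). The peaks given for these 4 genes were found in vWAT with estradiol and not with vehicle. The 2 genes with a Liver-only peak, Pi16 and Wnt5a, had no scWAT-only peak. Of 18 adipogenic factors 10 had a scWAT-only, 6 a Liver-only and 2 a shared peak, with 4 in both tissue-only classes and a median span of 97.88 kb. Their Liver-only share was 33.33%, against 13.67% over all genes. Zfp423, a preadipocyte factor, had its strongest scWAT-only peak at rank 277 (enrichment 14.04), Prdm16, a factor of thermogenic fat, at rank 1056 (10.81), and Rxra, the partner of many nuclear receptors, at rank 1469 (7.923). Stat5a, a transducer of growth hormone and prolactin, had a shared scWAT peak at rank 51 (15.29). Of 16 adipokine and adipocyte marker genes 6 had a scWAT-only, 2 a Liver-only and 5 a shared peak. Another 6, among them Adipoq, Retn, Lpl and Pck1, had no peak of these classes. With a window of 5 kb 2 of the 16 (12.50%) had a scWAT-only peak, against 7.195% of all genes. A scWAT-only peak 24.98 kb from Cfd, the adipsin gene, had rank 48 (enrichment 17.57), and the peak near Fabp4, the adipocyte fatty acid binding protein, was shared (rank 1614, 7.338).

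Genes of lipid synthesis had shared peaks more often than all genes, and those of lipolysis about as often. Of 20 genes of fatty acid and triglyceride synthesis 5 had a scWAT-only, 3 a Liver-only and 10 a shared peak, and of 20 lipolysis and lipid droplet genes 4, 2 and 5, the last close to the 27.47% over all genes. Fasn, fatty acid synthase, had a shared scWAT peak 9.398 kb outside its span (rank 477, enrichment 11.23) at the end of another gene, and Gpam, the first acyltransferase of triglyceride synthesis, one inside the gene (rank 194, 11.76). Srebf1, a transcription factor of lipid synthesis, had 3 scWAT-only peaks (strongest rank 366, 10.88) and none shared. Pnpla2, adipose triglyceride lipase, and Plin2, a lipid droplet coat protein, had shared Liver peaks at ranks 134 and 120, both at the ends of neighbouring genes.

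Genes of hepatocytes carried liver-only peaks, most of them low in rank. Of 20 genes of hepatocyte secreted proteins 1 had a scWAT-only, 8 a Liver-only and 7 a shared peak, and 7 had no peak of these classes. The Liver-only share was 40.00%, the same as for the endothelial genes given below. The 8 with a Liver-only peak were Alb (2 peaks, strongest rank 2593), the apolipoprotein genes Apoa1 and Apoh, Trf, Ahsg, F11 and the neighbouring fibrinogen genes Fga and Fgg, which share a peak. Their strongest ranks ran from 1463 at F11, a coagulation factor gene (enrichment 7.342), to 4985 at Apoh (4.845). The counts were 5, 7 and 5 of 18 liver transcription factors, 1, 4 and 5 of 16 genes of bile acids and transport, 4, 6 and 7 of 18 cholesterol and lipoprotein genes and 1, 5 and 3 of 18 genes of gluconeogenesis and amino acids. Cux2, a transcription factor with female-biased expression in mouse liver, had the strongest Liver-only peak of the transcription factors (rank 970, enrichment 10.03). Tat, tyrosine aminotransferase, had one at rank 1151 (7.915), Abcb4, the canalicular phospholipid transporter, at rank 1764 (7.208), and Dhcr7, the last enzyme of cholesterol synthesis, at rank 1813 (6.996). The Cux2 peak was also found in vWAT with vehicle, that of Dhcr7 in vWAT with estradiol and that of Apoh in BAT. Those given for F11, Tat and Abcb4 were in none of the 3 other lists. Hnf4a, a central hepatocyte factor, had 2 scWAT-only and 2 Liver-only peaks. With the 2000 strongest peaks of each list 1 of the 20 secreted protein genes had a Liver-only peak, against 2.243% of all genes. With a window of 5 kb it was 2 of 20 (10.00%), against 8.013% of all genes, so this count rested on peaks 5 to 25 kb from the genes. Of 18 genes of xenobiotic metabolism 2 had a scWAT-only, 2 a Liver-only and 4 a shared peak, none above the share over all genes.

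Ribosomal protein genes, taken as a housekeeping set, stood highest for shared peaks among the 20 lists, with a shared peak in 15 of 20, a scWAT-only in 3 and a Liver-only in 5. The shared scWAT peak of Rpl27 had rank 8 (enrichment 19.28), with its summit 0.023 kb from the gene end. Clock genes were next for shared peaks. Of 18 circadian clock genes 6 had a scWAT-only, 5 a Liver-only and 10 a shared peak, with a shared scWAT peak inside Arntl, the clock activator gene, at rank 736 (9.581). Of 18 growth hormone and insulin genes 6, 1 and 4 were counted and of 16 nuclear receptor cofactors 4, 3 and 8. Stat5b, a transducer of growth hormone, had 3 scWAT-only peaks (strongest rank 465, enrichment 11.04).

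Markers of other cell types that these tissues hold were counted in the same way. Of 15 endothelial genes 5 had a scWAT-only, 6 a Liver-only and 1 a shared peak, and Stab2, a scavenger receptor of sinusoidal endothelium, had 3 Liver-only and 1 scWAT-only. Of 15 macrophage genes it was 1, 2 and 2, of 16 mammary epithelium genes 1, 2 and 3 and of 18 depot identity factors 1, 1 and 0. The scWAT-only peak near Krt8, a keratin of luminal epithelium, had rank 2047 (enrichment 6.002), and the depot factor Tbx15 one at rank 1737 (7.237). Peaks beside a marker are not its expression, and RNA of scWAT and Liver was not analysed here, so the labelled tissues were compared with their markers only through these peaks. The part of other cell types in the fat peaks was not tested.

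**Figure D5:**
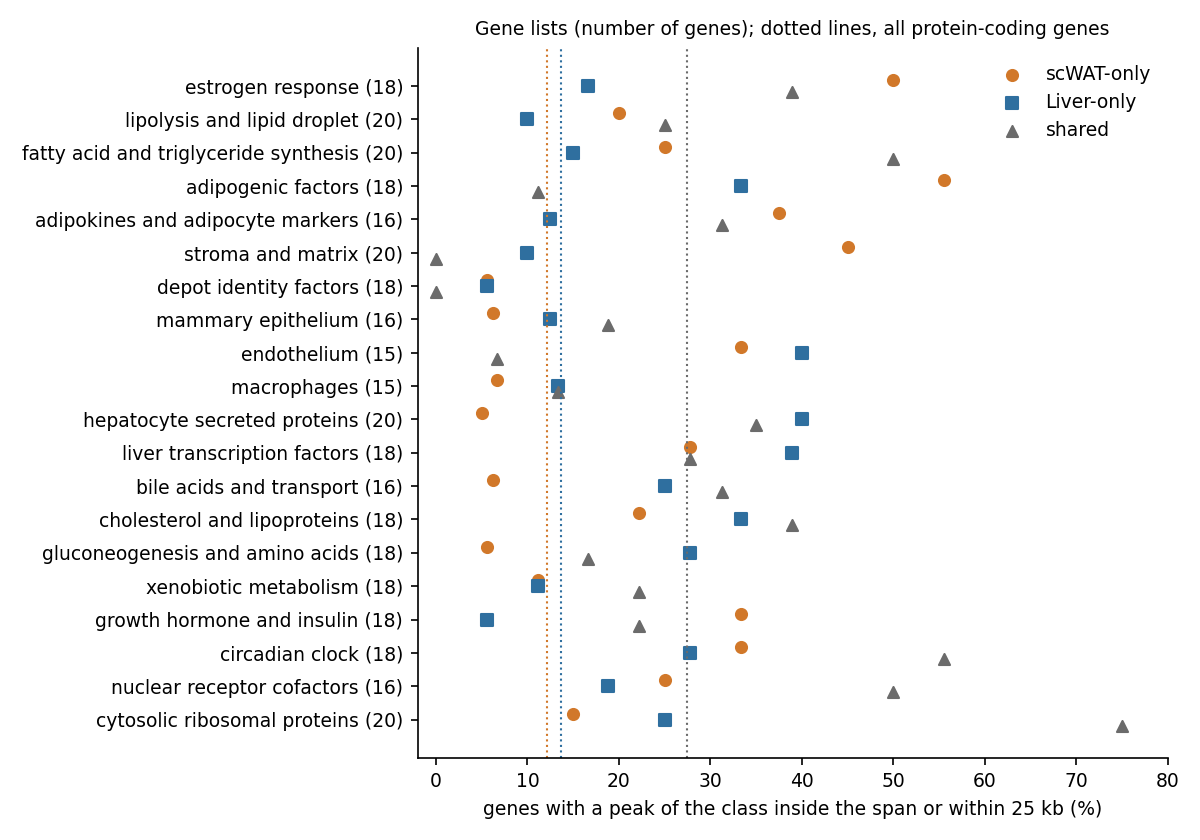
Share of the genes of each list (%) with a scWAT-only (circles), Liver-only (squares) or shared (triangles) peak inside the span or within 25 kb, with the number of genes in brackets. Dotted lines give the same share over all protein-coding genes. Stroma and matrix genes stand at 45.00% for scWAT-only and 0 for shared peaks, hepatocyte secreted proteins at 40.00% for Liver-only and 35.00% for shared peaks.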

How the data were processed

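The ERα peak lists of scWAT (3 libraries) and Liver (2) with estradiol were compared, and lists of vWAT with estradiol (4), vWAT with vehicle (2) and BAT (1) were looked up. Groups were taken from the labels. Per the labels' protocols, nuclei from frozen tissue were sonicated and ERα-bound chromatin was enriched with the antibody sc543. The submitters' processing notes name the build mm10 and the tools BWA 0.7.12 and HOMER without their roles. The sources used here do not say how peaks were called, against which control and at what threshold, or how libraries were joined. The files are headerless narrowPeak lists. The authors deposited for each peak a score, a fold enrichment (a ratio over a background that is not stated), −log10 p and −log10 q values and the summit offset. Depth and the number of libraries can change how many weak peaks a list holds, so an equal number of peaks was taken from each.

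Peaks of the 2 lists were ranked by −log10 p, with ties ordered by enrichment and position. Of the peaks tied at the 5000th place, 2 of 3 were kept in scWAT and 39 of 163 in Liver. Gene spans and promoter windows came from RefSeq tables of GRCm38.p6, and coordinates count from 1. The promoter table, which has no entry for some genes, gave windows of 250 bases before to 50 after a start site. All 355 genes of the 20 lists were found. Shares carry 95% Wilson intervals and their differences Newcombe intervals. Named were the 5 strongest peaks of 6 classes (with the nearest protein-coding gene within 50 kb), up to 4 genes a list by strongest peak, the 5 genes with the most peaks of each tissue-only class, and Greb1, Pgr and Esr1. Not every gene that this rule gives is reported here. Genes beyond this rule were added with their values in view. They are those with promoter elements, those at runs of peaks, and Pi16, Wnt5a, Adipoq, Retn, Lpl and Pck1. The Liver-only genes of the hepatic lists (Alb, Apoa1, Apoh, Ahsg, F11, Fga, Fgg, Cux2, Tat, Abcb4 and Hnf4a) were also added in this way. The peaks and gene lists were chosen with earlier results of these data known. Scripts ran in Python 3.11.15 (scipy 1.17.1, pandas 2.3.3, numpy 2.4.6, matplotlib 3.10.9). The overlap step was tested on Liver peaks moved by known amounts. The overlap, distance and gene window steps were also checked against direct counts on part of the Liver peaks. The motif search was not tested in this way. For its windows only the strand was checked, and all 1668 overlapping windows on opposite strands were reverse complements. Sequences of peaks outside the promoter windows were not analysed here.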

Additional observations from a re-analysis of the deposited data

How the results depend on the processing

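The 6 shares (scWAT peaks found in Liver, Liver peaks found in scWAT, and the gene-end shares of shared scWAT, scWAT-only, shared Liver and Liver-only peaks) moved beyond their counting intervals under most settings, while shared peaks stayed at gene ends more often than unshared ones of the same list under every alternative run. With the 2000 strongest peaks the first 2 shares were 41.55% and 85.35%, and the gene-end shares 4.192% of scWAT-only, 81.49% of shared Liver and 41.98% of Liver-only peaks. With all peaks the first 2 were 25.85% and 21.57% (nearly equal counts over lists of different length), and the gene-end shares 16.49%, 67.24% and 13.57% in the same sequence. Ranking by enrichment moved the scWAT share to 35.02%. Looked up in the other's 5000 strongest peaks the shares were 30.10% and 30.20%, with 77.61% of shared scWAT, 8.298% of scWAT-only and 45.01% of Liver-only peaks at gene ends. When summits had to lie within 100 bp they were 27.08% and 34.94%, with 72.82%, 12.95% and 42.08% of these same classes. With a −log10 q of at least 2 in both lists they were 34.08% and 53.36%, with 72.65% of shared scWAT peaks at gene ends. Without peaks found in vWAT with vehicle they were 8.747% and 18.71%, with 17.76% of shared scWAT, 4.848% of scWAT-only, 57.86% of shared Liver and 20.85% of Liver-only peaks. In that order the gene-end shares were 63.91%, 3.920%, 72.55% and 24.17% within 500 bp of a gene end, and 77.74%, 18.53%, 85.86% and 39.25% within 5 kb. Keeping all peaks tied with the 5000th, an alternative added after seeing the data, moved none of the 6 beyond its interval. With summits within 100 bp 23 of the 24 shares found in the other lists moved, among them those in vWAT with estradiol from 37.66% to 20.23% of Liver-only gene-end and from 7.711% to 3.427% of Liver-only distal peaks, and that in vWAT with vehicle from 30.69% to 17.46% of scWAT-only gene-end peaks. Gene counts carry no interval, and one was called moved when its ratio to the main count passed a fixed limit. Of the 63 gene counts 37 moved with a window of 5 kb, 48 with 100 kb, 46 with the 2000 strongest peaks and 3 with a −log10 q of at least 2. The cause of these movements was not tested, apart from the settings' own construction.

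No paired analysis was possible because each group has 1 peak list for all its libraries, and no list without 1 of the libraries was at hand. The depth behind the lists is unknown.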

Other observations

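Fat-only distal sites lay in neighbouring runs more often than liver-only ones. With summits joined when less than 12.5 kb apart, 448 of the 2974 distal scWAT-only peaks (15.06%, Wilson interval 13.82 to 16.39) lay in runs of at least 2, and 50 of the 1634 distal Liver-only peaks (3.060%, 2.329 to 4.011). The classes differ in number of peaks, and the part of that in the runs was not tested. The longest scWAT runs held 5 peaks over 42.09 kb inside Ccdc162 and 5 over 20.16 kb inside Trabd2b, which encodes a metalloprotease that acts on Wnt proteins. A run of 4 lay 7.176 kb from Cryaa, a crystallin gene, with 3 of the 4 found in vWAT with estradiol and none with vehicle. In Liver no run held more than 2 peaks, and among those of 2 were runs inside Bphl and Prodh2 and one 20.56 kb from Fabp1, the liver fatty acid binding protein gene.

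Trabd2b had the most scWAT-only peaks of any gene, 9 inside its span or within 25 kb, and no Liver-only or shared peak. Prkce, a protein kinase C gene, had 7 scWAT-only, 2 Liver-only and 2 shared peaks over a span of 490.1 kb. Ccdc162, Exoc2 and Sox5 were among the genes with 6 scWAT-only peaks. The largest number of Liver-only peaks was 4, at Pde4d, a cAMP phosphodiesterase gene of 1302 kb, Ext1, a heparan sulfate polymerase gene, and Fhad1, and these 3 genes had no scWAT-only peak among the 5000. Of the genes with 3 Liver-only peaks, Mpdu1 and Echdc3 had the highest −log10 p.

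Some genes had a site of each tissue-only class. Of the 2633 genes with a scWAT-only peak 17.93% also had a Liver-only peak, and of the 2956 genes with a Liver-only peak 15.97%, in both cases the same 472 genes. Over all protein-coding genes 13.67% had a Liver-only and 12.17% a scWAT-only peak, so these shares lay close to the background. The median span of the 472 genes was 41.66 kb, against 17.33 kb over all protein-coding genes. At Kat2b, an acetyltransferase gene, a scWAT-only peak (chr17:53577901-53578588, rank 795, enrichment 8.727) and a Liver-only peak (chr17:53580365-53580769, rank 4121, enrichment 5.310) lay within the same gene. At Itih5 the scWAT-only peak lay 24.71 kb outside the span (rank 2093) and the Liver-only peak inside it (rank 4885).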
